A study of Mus musculus with 16 samples.

Results

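The genes described here are 7 that mark endothelial tip cells and capillary endothelium: Apln, Aplnr, Adm, Esm1, Cd34, Emcn and Rgcc. They were found by symbol among the 47729 gene rows of each count table, and all 7 were present with a single row. They were chosen by their counts in liver endothelial cells (ECs), where the libraries of the 2 Zeb2 genotype labels differed in several of them, so that their values in that comparison are given as a description without a p-value. Their label differences in the other 3 cell types did not enter that choice and were tested. Tests of ECs against other cell types use the same EC libraries, of which those labelled KO had the high values behind the choice, so that the calls are also given with the WT libraries alone.

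RNA came from ECs, hepatic stellate cells (SC), Kupffer cells (KC) and hepatocytes (HC) of unchallenged adult mouse livers, in 16 libraries, with 2 libraries for each cell type and genotype label. Mice labelled KO carried Zeb2 alleles with a floxed exon 7, an R26R CAG-boosted eGFP reporter and Cdh5-CreERT2, a tamoxifen-inducible Cre under the promoter of the endothelial cadherin Cdh5. Mice labelled WT were littermates of the same cross without Cre. Both received tamoxifen at 2 mg per day for 5 days, and the study's methods give 8-week-old males and mRNA measured 2 weeks later. Stellate cells were sorted by their ultraviolet autofluorescence, Kupffer cells by F4/80 and ECs by the pan-endothelial antigen Meca32, whereas hepatocytes were separated by centrifugation. The labels do not state which libraries shared a liver or whether livers were pooled, so that p-values measure the spread between these libraries alone.

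Apelin, encoded by Apln, is a secreted peptide of sprouting ECs that signals through the G protein-coupled receptor Aplnr, and adrenomedullin, encoded by Adm, is a vasoactive peptide that acts through the receptor Calcrl together with a Ramp protein. Esm1 (endocan) is a secreted proteoglycan of tip cells, the leading cells of a sprout, and Cd34 and Emcn (endomucin) are sialomucins of the endothelial surface. Rgcc is a regulator of the cell cycle that is induced by hypoxia and restrains angiogenesis. Cd34 is more typical of capillaries with a closed wall than of liver sinusoids, whose ECs carry open pores.

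Each library had between 12872706 and 15690506 reads on genes, and levels are given as CPM, the counts of a gene scaled to the same total of reads on genes in every library. A count of 3, taken as the lowest level this depth can show, was worth between 0.191 and 0.233 CPM, for counting error only. Zeb2 had 106.5 and 105.7 CPM in the EC libraries labelled WT and 198.9 and 130.1 CPM in those labelled KO. The count covers the whole gene and not exon 7 alone, so that it cannot check the deletion, and libraries are called by their labels. By summed CPM, ECs were highest in the pan-endothelial and sinusoidal EC lists, and stellate cells, Kupffer cells and hepatocytes each in their own list. The vein, artery and lymphatic EC lists summed higher in stellate cells than in ECs. The summed level of 10 pan-endothelial markers lay between 10503 and 15303 CPM in ECs, 2570 and 3010 CPM in stellate cells, 508 and 996 CPM in Kupffer cells and 41.0 and 82.2 CPM in hepatocytes. Markers of other cells were unevenly present in ECs. Genes enriched in hepatocytes took 6.92% and 13.1% of the reads in the EC libraries labelled WT and 2.51% and 1.92% in those labelled KO. In bulk RNA, fewer cells of a type and less RNA per cell cannot be told apart.

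The stretches around the transcription starts of 4 of the genes are printed because Zeb2 is a repressor that binds E-boxes and because Adm and Apln are known targets of hypoxia-inducible factors. They are RefSeq promoters on GRCm38.p6, from 250 bases before to 50 bases after the start, given on the strand of the gene. Cd34 (ENSMUSG00000016494) lies on the plus strand of chromosome 1, and its promoter spans chr1:194938571-194938870. Rgcc (ENSMUSG00000022018) lies on the minus strand of chromosome 14, with the promoter at chr14:79301586-79301885. The promoter of Apln (ENSMUSG00000037010) spans chrX:48034804-48035103 on the minus strand, and that of Adm (ENSMUSG00000030790) spans chr7:110627407-110627706 on the plus strand. Capitals mark CACCT or its reverse complement AGGTG, which form the core of the Zeb E-box, and the hypoxia core ACGTG or GCGTG on either strand, which reads CACGT or CACGC on the other.
Cd34: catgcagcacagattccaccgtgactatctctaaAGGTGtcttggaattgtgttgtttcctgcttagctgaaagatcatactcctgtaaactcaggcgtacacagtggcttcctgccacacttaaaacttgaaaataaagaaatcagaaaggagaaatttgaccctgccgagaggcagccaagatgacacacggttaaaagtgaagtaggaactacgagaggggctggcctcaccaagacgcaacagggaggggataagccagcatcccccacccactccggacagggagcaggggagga
Rgcc: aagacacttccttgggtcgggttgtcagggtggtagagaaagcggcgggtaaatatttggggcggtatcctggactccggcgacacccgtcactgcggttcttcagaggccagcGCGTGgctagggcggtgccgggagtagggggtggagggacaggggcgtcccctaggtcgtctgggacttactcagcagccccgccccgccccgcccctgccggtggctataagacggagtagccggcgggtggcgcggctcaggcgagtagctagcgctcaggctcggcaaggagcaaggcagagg
Apln: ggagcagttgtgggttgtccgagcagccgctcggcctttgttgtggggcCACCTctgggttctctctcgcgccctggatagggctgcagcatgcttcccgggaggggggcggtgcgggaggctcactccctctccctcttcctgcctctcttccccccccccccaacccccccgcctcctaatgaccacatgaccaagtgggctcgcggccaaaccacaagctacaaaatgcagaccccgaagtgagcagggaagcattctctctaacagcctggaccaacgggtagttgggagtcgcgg
Adm: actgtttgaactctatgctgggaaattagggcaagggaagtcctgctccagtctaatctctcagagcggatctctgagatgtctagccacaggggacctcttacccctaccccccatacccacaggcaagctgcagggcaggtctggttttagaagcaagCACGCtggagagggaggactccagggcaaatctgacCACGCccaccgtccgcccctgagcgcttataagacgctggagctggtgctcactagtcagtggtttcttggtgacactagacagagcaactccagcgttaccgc

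The longer E-box CACCTG or CAGGTG was in none of the 6 promoters that the table holds, against 20.2% of all 32851 mouse promoters of this length. The shorter word CACCT or AGGTG, which was searched after that, was found once in Cd34, 216 bases before the start, and once in Apln, 201 bases before it. This word was in 51.9% of all promoters. The hypoxia core was in 4 of the 6, at 2 places in Adm (90 and 54 bases before the start) and at 1 place each in Rgcc (136 bases before), Esm1 (47 bases before) and Emcn (11 bases before), against 43.8% of all promoters. Positions are those of the first base of the match. The promoters differed in composition, with 66.7% G and C and 26 CpG dinucleotides in Rgcc and 41.0% and 2 CpG dinucleotides in Emcn, beside a median of 52.7% and 7 over all promoters. A match of these letters is a description of the sequence and shows no binding.

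Across the 4 cell types, Emcn, Esm1 and Cd34 had all 4 EC libraries above all 12 others. The share of all genes in that order was not computed. Against a single cell type, all 4 EC libraries were above all 4 others for 20.7% (stellate cells), 25.8% (Kupffer cells) and 54.7% (hepatocytes) of all genes. With the WT libraries alone, Cd34 was not called against stellate cells. Adm was highest in stellate cells, Rgcc was highest in ECs but overlapped with stellate and Kupffer cells, and Apln and Aplnr were close to the lowest level that the depth can show in most libraries.

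**Figure D1:**
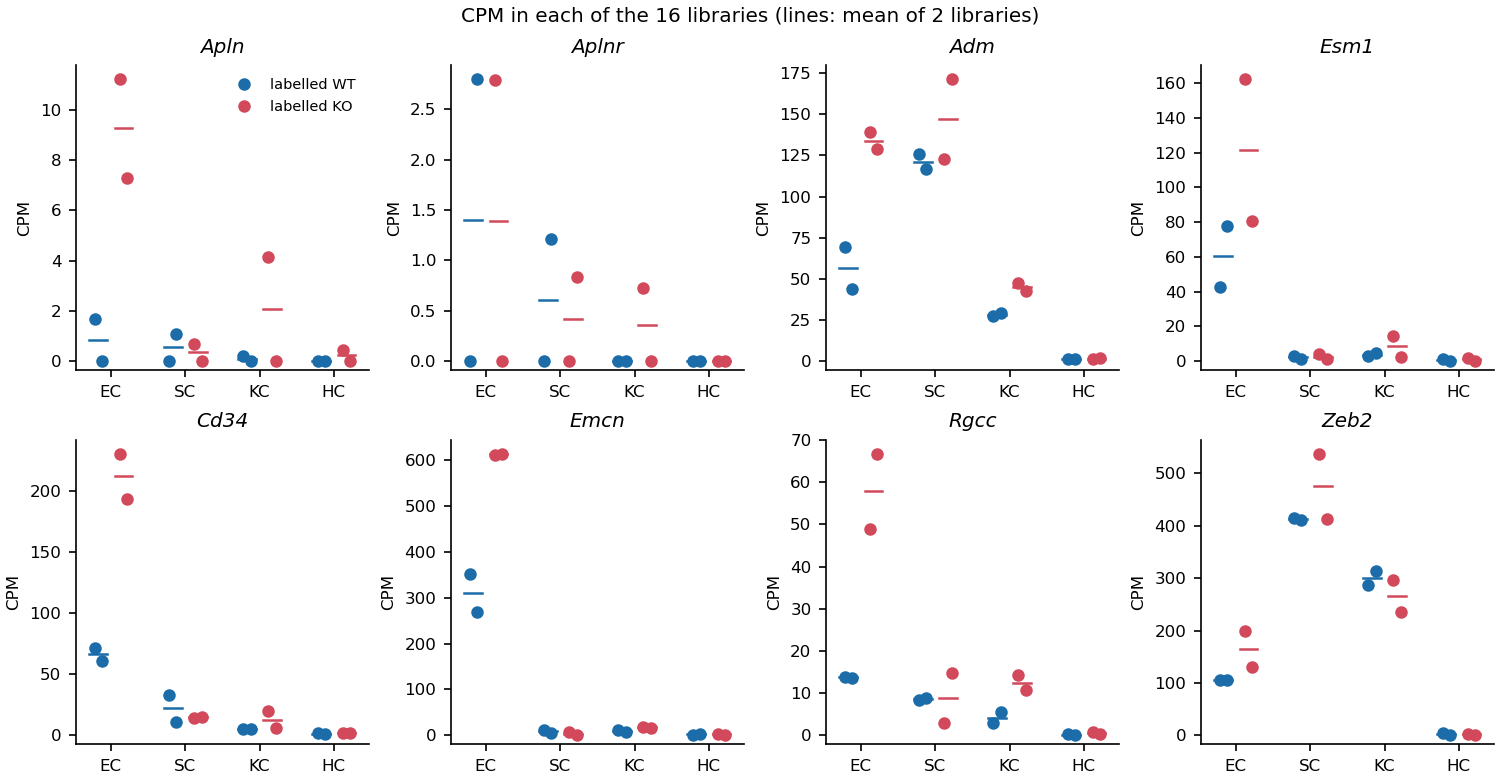
CPM of the 7 genes and of Zeb2 in each of the 16 libraries, by cell type, with libraries labelled WT in blue and KO in red and a line at the mean of the 2 libraries. Emcn stands far above the other cell types in ECs. Esm1 and Cd34 are above them by less at the nearest libraries. These are 42.6 CPM (EC WT 34) against 14.4 CPM (KC KO 27) for Esm1. For Cd34 they are 61.3 CPM (EC WT 38) against 33.0 CPM (SC WT 32). Adm is as high in stellate cells as in the ECs labelled KO, and Aplnr is at 0 in 11 of the 16 libraries.

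Emcn had the highest level per length among the members in ECs. Its CPM in the EC libraries was 351.5 and 268.9 with the WT label and 611.3 and 613.8 with the KO label. In Kupffer cells it was between 7.18 and 18.3 CPM, in stellate cells between 0.207 and 12.3 CPM and in hepatocytes between 0.956 and 3.27 CPM. Kupffer cells overlapped with stellate cells and these with hepatocytes, whereas no library of another cell type came near the ECs. Emcn was higher in ECs than in stellate cells by 6.14 on the log2 scale (SE 0.73, adjusted p = 7.09e-05, edgeR's quasi-likelihood test over 16 libraries), than in Kupffer cells by 4.80 (SE 0.68, adjusted p = 0.000201) and than in hepatocytes by 6.45 (SE 0.75, adjusted p = 1.39e-05). Emcn (ENSMUSG00000054690) lies on the plus strand at chr3:137341067-137432185.

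Esm1 followed the same order with lower levels. The EC libraries held 42.6 and 77.8 CPM with the WT label and 162.1 and 80.8 CPM with the KO label. Kupffer cells had 2.50 to 14.4 CPM, stellate cells 1.28 to 3.87 CPM and hepatocytes 0.0682 to 2.00 CPM, and each of these ranges overlapped with the next. Esm1 was higher in ECs than in stellate cells by 4.93 on the log2 scale (SE 0.79, adjusted p = 0.000629, edgeR), than in Kupffer cells by 3.64 (SE 0.73, adjusted p = 0.00246) and than in hepatocytes by 5.52 (SE 0.84, adjusted p = 0.000121). The gene (ENSMUSG00000042379, plus strand, chr13:113209659-113218098) overlaps Gzmk on the other strand but shares no exon bases with it.

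Cd34, unlike Emcn, was also counted at over 10 CPM in every stellate cell library. It had 71.3 and 61.3 CPM in the EC libraries labelled WT and 231.0 and 193.6 CPM in those labelled KO. Stellate cells had 33.0 and 11.0 CPM with the WT label and 14.2 and 15.1 CPM with the KO label, Kupffer cells 4.90 to 20.0 CPM and hepatocytes 0.955 to 2.00 CPM. Stellate and Kupffer cells overlapped, and Kupffer cells and hepatocytes did not. ECs were higher than stellate cells by 2.47 on the log2 scale (SE 0.40, adjusted p = 0.000684, edgeR), than Kupffer cells by 3.57 (SE 0.42, adjusted p = 4.79e-05) and than hepatocytes by 4.87 (SE 0.46, adjusted p = 2.28e-06). With the WT libraries alone the difference from stellate cells was 1.31 (SE 0.53) and no longer passed the threshold (adjusted p = 0.165, edgeR). An antisense gene, Gm16897, shares 148 of the 7290 exon bases of Cd34, and the strand setting of the counts is not given in the sources used here, so that reads on these bases cannot be assigned.

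Adm was the member whose highest cell type was not the EC. Stellate cells had 125.9 and 116.6 CPM with the WT label and 122.6 and 171.3 CPM with the KO label, and ECs had 69.5 and 44.0 CPM with the WT label and 139.1 and 128.9 CPM with the KO label. The EC libraries labelled WT therefore lay below all 4 stellate cell libraries, while those labelled KO lay among them. Kupffer cells had 27.4 to 47.5 CPM, overlapping with the lower of the EC libraries, and hepatocytes had 1.23 to 1.68 CPM. Adm was lower in ECs than in stellate cells, with a log2 difference of -0.86 (SE 0.20, adjusted p = 0.00753, edgeR), and higher than in Kupffer cells by 0.98 (SE 0.20, adjusted p = 0.00284) and than in hepatocytes by 4.57 (SE 0.24, adjusted p = 5.08e-08). With the WT libraries alone the first of these was -1.36 (adjusted p = 0.0314, edgeR), and the difference from Kupffer cells was 0.65 and did not pass the threshold (adjusted p = 0.199).

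Rgcc was highest in the ECs labelled KO, while the ECs labelled WT were close to stellate and Kupffer cells. The EC libraries held 13.8 and 13.7 CPM with the WT label and 49.0 and 66.8 CPM with the KO label. Stellate cells had 8.45 and 8.96 CPM with the WT label and 2.90 and 14.7 CPM with the KO label, Kupffer cells 3.02 to 14.2 CPM and hepatocytes 0.136 to 0.709 CPM. Stellate and Kupffer cells thus covered the same range, and the highest library of each exceeded both EC libraries labelled WT. Averaged over labels, Rgcc was higher in ECs than in stellate cells by 1.43 on the log2 scale (SE 0.43, adjusted p = 0.0288, edgeR), than in Kupffer cells by 1.66 (SE 0.44, adjusted p = 0.0119) and than in hepatocytes by 5.16 (SE 0.55, adjusted p = 6.32e-06). The first of these rested on every library of both cell types except SC KO 20. Leaving out any one of the other 7 gave adjusted p-values (edgeR) from 0.0501, without SC KO 8, to 0.128, without EC KO 46, with the log2 difference lowest, at 0.99, without SC KO 8. The difference from Kupffer cells lost its call without EC KO 46 (adjusted p = 0.0586, edgeR) and without KC WT 31 (adjusted p = 0.0565). With the WT libraries alone it was 0.38 (adjusted p = 0.687, edgeR) against stellate cells and 1.36 (adjusted p = 0.117) against Kupffer cells.

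Apln was counted in 8 of the 16 libraries. In ECs it had 24 reads (1.67 CPM) and no read with the WT label, and 161 reads (11.2 CPM) and 105 reads (7.30 CPM) with the KO label. Among Kupffer cells, KC KO 27 had 63 reads (4.15 CPM), KC WT 31 had 3 and the other two had none. Stellate cells had 17 reads (1.09 CPM) in SC WT 40, 10 reads (0.691 CPM) in SC KO 8 and none in the others, and the one hepatocyte library with reads, HC KO 25, had 7. For libraries at 0 the 3-count value was 0.191 to 0.233 CPM, and the upper exact Poisson limit at the 95% level was 0.235 to 0.287 CPM. The exact Poisson interval at that level was 1.07 to 2.49 CPM for the EC library WT 34 and 5.97 to 8.84 CPM for the lower of those labelled KO. These limits and intervals cover counting error only. Apln passed the threshold in none of the 3 comparisons of ECs with another cell type (adjusted p = 0.339, 0.376 and 0.0975 for stellate cells, Kupffer cells and hepatocytes, edgeR). Against hepatocytes it did so with library totals alone (adjusted p = 0.0374) and with no filter on low counts (adjusted p = 0.000306). The gene lies at chrX:48025146-48034853.

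Its receptor Aplnr was the rarest of the members. EC WT 38 had 36 reads (2.80 CPM) and EC KO 6 had 40 reads (2.79 CPM), while EC WT 34 and EC KO 46 had none. Stellate cells had 19 reads in SC WT 40 and 12 in SC KO 20, Kupffer cells 11 in KC KO 27, and all 4 hepatocyte libraries had none. In ECs and in stellate cells, 1 library of each label had reads and 1 had none. Aplnr passed the threshold in none of the 3 comparisons of ECs (adjusted p = 0.736, 0.232 and 0.104, edgeR, in the order above). With no filter on low counts it did so against Kupffer cells (adjusted p = 0.0345) and hepatocytes (adjusted p = 0.00224). It is encoded at chr2:85136225-85139923 on the plus strand, and no promoter of it is printed.

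**Figure D2:**
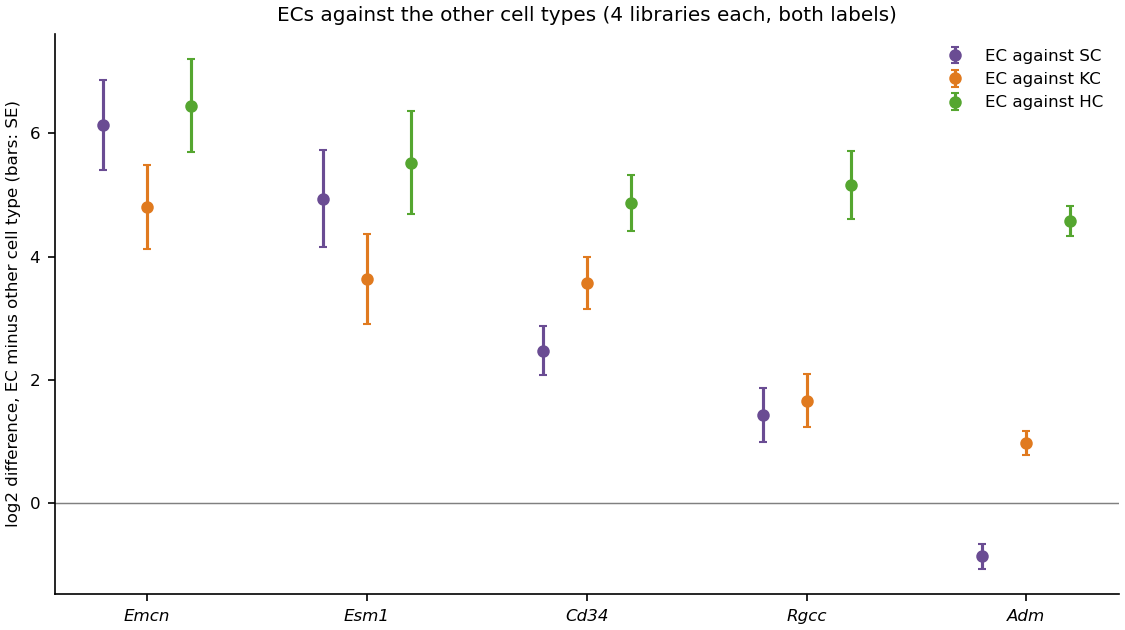
Log2 difference of the 5 members that passed the threshold between ECs and stellate cells, Kupffer cells and hepatocytes, with the standard error as bars, from one edgeR fit of 16 libraries. Emcn and Esm1 are at 3.64 or more in all 3 comparisons, and Adm is the one point under 0, at -0.86 against stellate cells.

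In all, 5 of the 7 members differed between ECs and stellate cells, 4 higher and 1 lower, where 26.0% of the 17214 genes tested passed the threshold (13.3% higher and 12.8% lower). Against Kupffer cells 5 of 7 were higher in ECs, beside 17.5% of all genes (32.0% called in either direction). Against hepatocytes the same 5 were higher, beside 33.2% of all genes (58.7% in either direction). With the WT libraries alone, 3 of 7 were called against stellate cells (Emcn and Esm1 higher and Adm lower, beside 10.2% of 15979 genes), 3 against Kupffer cells (Emcn, Esm1 and Cd34 higher, beside 17.3%) and the 5 above against hepatocytes (43.6%). The counts over both labels include the EC libraries labelled KO, whose values led to the choice of the genes, and are a description. All 4 EC libraries lay above all 4 of the other cell type for 3 members against stellate cells (20.7% of all genes), 3 against Kupffer cells (25.8%) and 5 against hepatocytes (54.7%). With scaling by library totals alone, the median difference of all genes moved from 0.54 to 1.85 against hepatocytes, from 0.13 to 0.45 against Kupffer cells and from 0.02 to 0.27 against stellate cells, and the share of calls that were higher in ECs moved from 56.6% to 82.6%, from 54.7% to 70.1% and from 50.9% to 64.6%. The directions of the 5 members were the same under both scalings, Adm being at -0.61 against stellate cells with library totals. The 16 libraries were treated as independent, although cell types isolated together may share a liver.

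Compared per kilobase of exon, the order of the members in ECs differed between the labels. With the WT label the mean levels were 57.3 CPM per kb for Emcn, 35.0 for Adm, 28.7 for Esm1, 15.0 for Rgcc, 9.09 for Cd34, 0.378 for Aplnr and 0.266 for Apln. With the KO label they were 113 CPM per kb for Emcn, 82.8 for Adm, 63.1 for Rgcc, 57.9 for Esm1, 29.1 for Cd34, 2.94 for Apln and 0.377 for Aplnr. Rgcc stood above Esm1 and Apln above Aplnr with the KO label and below them with the WT label. The single libraries of Rgcc and Esm1 overlapped there, and the exchange of places was not tested.

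Between the labels in ECs, 6 of the 7 members had both libraries labelled KO above both labelled WT, and the remaining one, Aplnr, had 1 library with reads and 1 without under each label. Of all 14631 genes tested in ECs, 24.2% had both KO libraries above both WT. Cd34 and Rgcc passed the threshold among the members, where 2.08% of all genes did so, 0.116% being called higher and 1.97% lower. Since this comparison had led to the choice of the genes, the counts are given without a reading.

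The sialomucins Cd34 and Emcn had mean levels of 66.3 ± 7.08 and 310 ± 58.4 CPM with the WT label and 212 ± 26.4 and 613 ± 1.80 CPM with the KO label (SD, n = 2). The log2 fold change was 1.67 (SE 0.22) for Cd34 and 0.98 (SE 0.25) for Emcn. Leaving out 1 library at a time gave 1.55 to 1.83 for Cd34 and 0.78 to 1.23 for Emcn.

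Rgcc had the largest log2 fold change among the members with reads in all 4 EC libraries, at 2.08 (SE 0.29), with means of 13.7 ± 0.101 and 57.9 ± 12.6 CPM (SD, n = 2). Its values without 1 library lay between 1.79 and 2.35. Adm had 56.7 ± 18 CPM with the WT label and 134 ± 7.20 CPM with the KO label (SD, n = 2), a log2 fold change of 1.23 (SE 0.28, 0.92 to 1.65 without 1 library).

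Esm1 was the least separated of the 6. Its means were 60.2 ± 24.9 CPM with the WT label and 121 ± 57.5 CPM with the KO label (SD, n = 2), with a log2 fold change of 1.0 (SE 0.39). The gap between the groups was 77.8 against 80.8 CPM, and without EC KO 6 the log2 fold change was 0.50.

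For Apln the log2 fold change was 3.41 (SE 1.31), with 1 of the 2 WT libraries at 0. When EC WT 34 was left out, the only WT library had no read. The mean of the KO libraries, 9.26 CPM, was 39.7-fold the 3-count level of that WT library, which is no bound on the difference. With any other library left out, the log2 fold change stayed at 2.43 or more. Aplnr had a log2 fold change of -0.03 (SE 2.14), and its sign followed whichever library was left out.

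**Figure D3:**
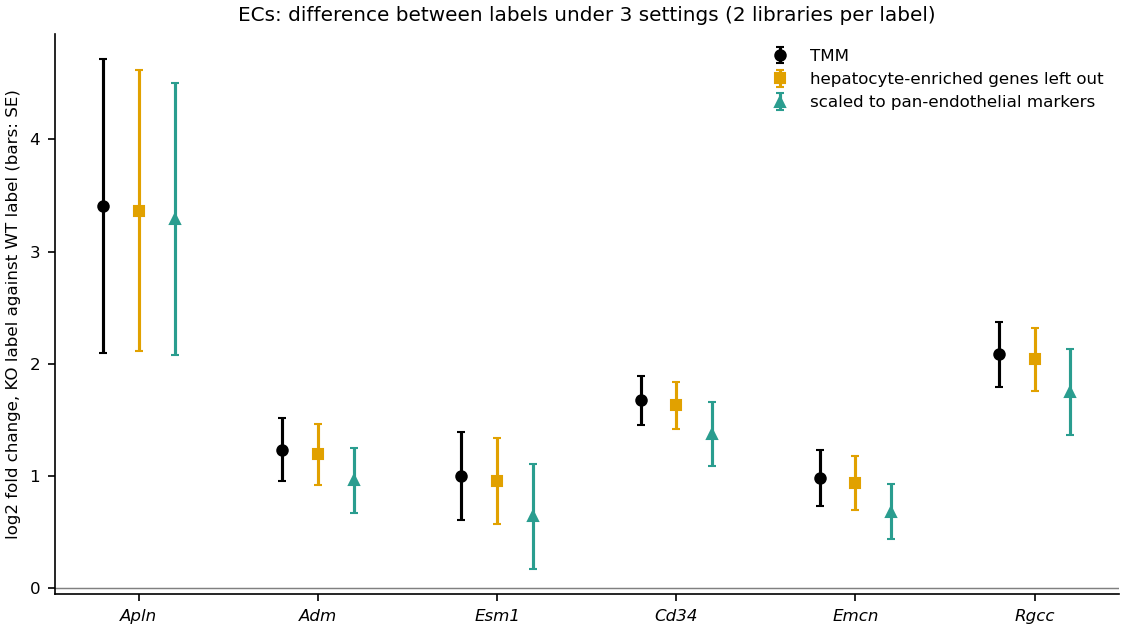
Log2 fold change between the KO and WT labels in ECs for 6 members, with the standard error as bars, under TMM scaling (black circles), without hepatocyte-enriched genes (yellow squares) and with libraries scaled to the summed pan-endothelial markers (green triangles). All points lie above 0. The third setting lowers Cd34 from 1.67 to 1.37 and Esm1 from 1.0 to 0.64.

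The levels of other cell types moved with the labels in the EC libraries. All 15 hepatocyte markers were lower with the KO label (adjusted p under the threshold for each, edgeR, median log2 fold change -2.93), with Alb, the gene of albumin, at 6207 and 12528 CPM against 1526 and 937 CPM. With the 857 hepatocyte-enriched genes left out of the tables, the log2 fold changes were 1.63 for Cd34, 2.04 for Rgcc, 1.19 for Adm, 0.96 for Esm1, 0.94 for Emcn and 3.37 for Apln. None of the 7 members is itself hepatocyte-enriched. That filter left no gene past the threshold in ECs with edgeR (0 of 13798, 1665 with an unadjusted p under 0.05), whereas DESeq2 called 372, so that the calls of Cd34 and Rgcc did not outlast it with edgeR. The summed stellate cell markers were 1291 and 1584 CPM with the WT label and 548 and 807 CPM with the KO label, beside 79858 to 90384 CPM in the stellate cell libraries. The 10 Kupffer cell markers were at 874 and 554 CPM against 1167 and 1228 CPM, with 10 estimates above 0 and none called. None of the 10 lymphocyte markers (median -1.35) or the 6 cholangiocyte markers (median -0.43) was called. The part of these cells in the members' values was not tested.

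The members were also set against the summed pan-endothelial markers of each library. This sum was itself higher with the KO label, at 13881 and 10503 CPM with the WT label and 14704 and 15303 CPM with the KO label. Of the 10 markers, 5 had an estimate above 0 and 5 below. Cd34 amounted to 0.514% and 0.584% of the summed pan-endothelial CPM with the WT label and to 1.57% and 1.27% with the KO label. Emcn amounted to 2.53% and 2.56% against 4.16% and 4.01%, Rgcc to 0.0995% and 0.130% against 0.333% and 0.437%, and Adm to 0.501% and 0.419% against 0.946% and 0.842%. Apln amounted to 0.0121% and 0% against 0.0762% and 0.0477%. Esm1 amounted to 0.307% and 0.741% against 1.10% and 0.528%, which overlapped. These same libraries had led to the choice of the genes, and no share of all genes was computed on this scale. The values are therefore given without a reading. Scaled in this way, the log2 fold changes were 1.37 for Cd34, 1.75 for Rgcc, 0.96 for Adm, 0.64 for Esm1, 0.68 for Emcn and 3.29 for Apln, while the median of all genes stood at -0.34.

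Cd34 also marks mesothelial cells and portal fibroblasts. Without Cd34, the other 9 markers of these cells summed to 51.0 and 56.8 CPM in the EC libraries labelled WT and to 64.8 and 22.4 CPM in those labelled KO, which overlapped. Gli1 had no read in either EC library labelled KO and Upk1b had none in EC KO 46, while the other markers were counted in all 4. No marker of that list other than Cd34 passed the threshold, with Fbln2, an extracellular matrix gene, at a log2 fold change of -1.03 (SE 0.32) and Gpm6a, a membrane glycoprotein of mesothelium, at -0.40 (SE 0.86).

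Among the other genes of the same programmes, few passed the threshold in ECs. Of 22 tip cell genes tested, 4 are members, of which Cd34 was called. Of the other 18, 1 was called, Pdgfb, the ligand that recruits pericytes. Pdgfb had 1.67 and 3.50 CPM with the WT label and 16.4 and 20.0 CPM with the KO label (log2 fold change 2.83, SE 0.50, adjusted p = 0.049, edgeR). The median of the tip cell list was -0.07, and -0.23 without the members, beside -0.01 over all genes tested. The most abundant of its other genes were Nrp1, a co-receptor of Vegf, at 0.33 (SE 0.31, adjusted p = 0.680), and Kdr, the main Vegf receptor, at -0.28 (SE 0.28, adjusted p = 0.699). Of 10 stalk cell genes none was called, and 1 of the estimates was above 0 (Flt1, a decoy receptor of Vegf, at 0.24).

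The list of continuous capillary genes lay more to one side. Of 18 tested, 3 are members chosen with this comparison known, among them Cd34 and Rgcc, the only ones called. With these 3, 15 of 18 had an estimate above 0 and the median was 0.66. Without the 3 members, 12 of 15 were above 0 where 49.1% of all genes were, the median was 0.52 and none was called. The highest of them in level were Aqp1, a water channel, at a log2 fold change of 0.35 (SE 0.36, adjusted p = 0.712, edgeR) and Cldn5, a tight junction protein, at 0.52 (SE 0.29, adjusted p = 0.461). The other 3 sialomucins were not called. Of these, Cd164 was at 0.52 (SE 0.21, adjusted p = 0.322), Podxl was at -0.34 (SE 0.21, adjusted p = 0.523), and Podxl2 was under 1 CPM in every EC library, with no read in those labelled KO.

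**Figure D4:**
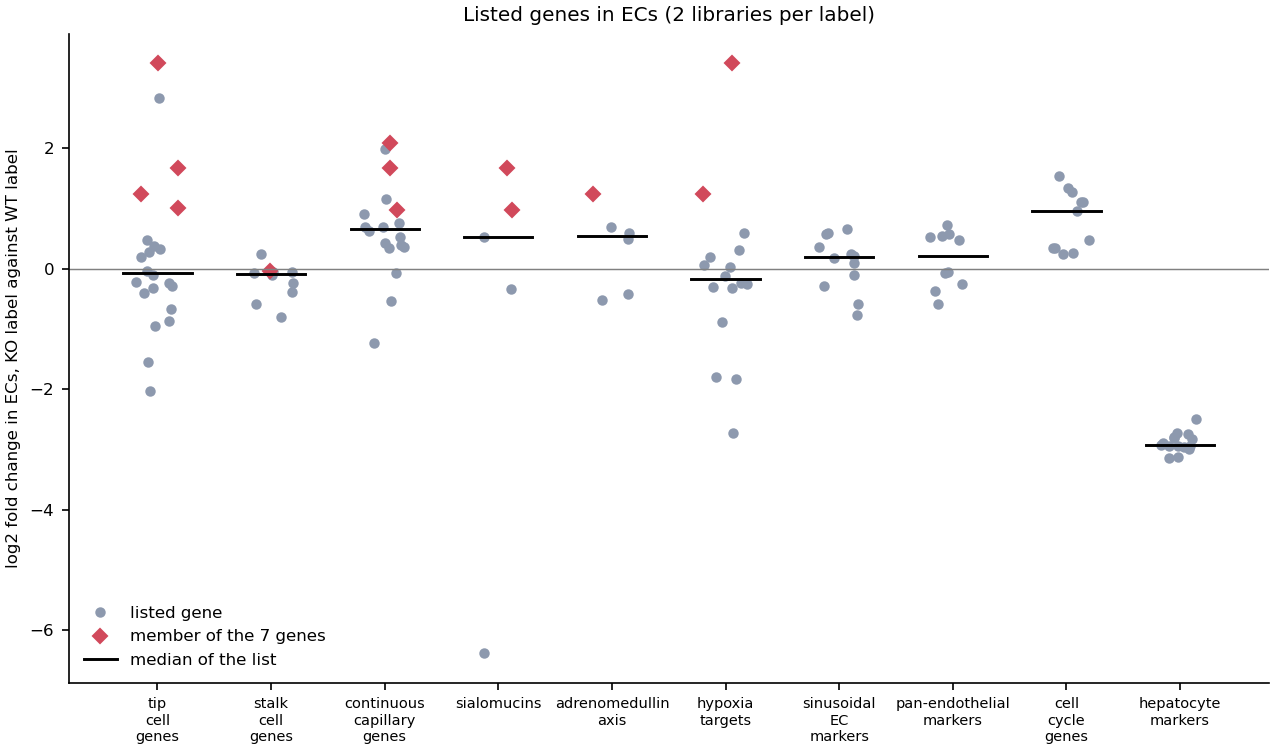
Log2 fold change between labels in ECs of the genes in 10 lists (grey points), with the members as red diamonds and the list median as a black line. The members were chosen with this comparison known, so that their place within the lists is given without a reading. The medians are -0.07 for the tip cell list, -0.17 for the hypoxia list and 0.66 for the continuous capillary list. Without the members these are -0.23, -0.24 and 0.52. Hepatocyte markers lie near -2.93. The grey point near -6.4 is Podxl2, which has no read in the ECs labelled KO.

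Of the 14 hypoxia target genes tested beside the members Adm and Apln, none was called, and the median was -0.24, or -0.17 with these members. Ldha, an enzyme of glycolysis, was at 0.07 (SE 0.29, adjusted p = 0.948, edgeR) and Ndrg1 at 0.19 (SE 0.27, adjusted p = 0.811). All 11 cell cycle genes tested had an estimate above 0 with a median of 0.96, and none was called, Pcna being at 0.48 (SE 0.24, adjusted p = 0.422). Sinusoidal EC markers had a median of 0.20 with 8 of 12 above 0, and pan-endothelial markers one of 0.21 with 5 of 10 above 0, and none of either was called. The 15 dissociation genes had a median of -0.13 and no call, with Fos at 4628 and 11754 CPM against 13719 and 10948 CPM. Fos was lowest in EC WT 34, and Adm in EC WT 38. The vein, artery and lymphatic marker lists had no call and medians of -0.36, -0.27 and -0.74.

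Of the receptor genes for adrenomedullin, Ramp1, Ramp2 and Ramp3 differed between ECs and stellate cells, and Calcrl and the scavenger receptor Ackr3 were not called. Calcrl, the receptor itself, had 78.1 to 185 CPM in ECs and 65.4 to 228 CPM in stellate cells, and was not called between them (log2 difference -0.29, SE 0.45, adjusted p = 0.697, edgeR). Ramp2, the partner that makes Calcrl an adrenomedullin receptor, had 333 to 583 CPM in ECs and 22.1 to 54.0 CPM in stellate cells (log2 difference 3.22, SE 0.29, adjusted p = 7.56e-06). Ramp1, the partner that makes it a receptor for calcitonin gene-related peptide, had 6.34 to 11.0 CPM in ECs and 677 to 1205 CPM in stellate cells (log2 difference -6.99, SE 0.63, adjusted p = 7.85e-06). Per kilobase, Ramp2 stood at 131 CPM per kb in ECs and Ramp1 at 280 CPM per kb in stellate cells, beside 28.4 and 30.4 for Calcrl. Between labels in ECs, Ramp2 was at 0.59 (SE 0.26, adjusted p = 0.357), Calcrl at 0.49 (SE 0.35, adjusted p = 0.577) and Ramp3 at 0.69 (SE 0.40, adjusted p = 0.494), and none of the 5 genes of this axis tested beside Adm was called. In stellate cells Calcrl had 228 and 157 CPM with the WT label and 144 and 65.4 CPM with the KO label (log2 fold change -0.93, SE 0.40, adjusted p = 0.599). The second ligand of the adrenomedullin receptors, Adm2, had 1 read in HC WT 29 and none elsewhere. The second ligand of Aplnr, Apela, was counted in the stellate cell libraries alone, at 0.484 to 1.28 CPM, against no read in the other 12 libraries.

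Outside ECs the members were tested between the labels without having been chosen there. In stellate cells all 7 passed the filter on low counts, none was called, and none had both KO libraries on one side of both WT libraries, where 0% of 14390 genes were called with edgeR, 20.5% had both KO libraries above and 19.3% below. Of those genes 1259 had an unadjusted p under 0.05, and DESeq2 called 408. Cd34 was at -0.61 (SE 0.56, adjusted p = 0.843, edgeR), Emcn at -1.52 (SE 1.29, adjusted p = 0.831), Adm at 0.27 (SE 0.27, adjusted p = 0.853) and Rgcc at 0.03 (SE 0.79, adjusted p = 0.995). Of the markers of other cells in these libraries, 7 of 10 pan-endothelial (median -1.0), 10 of 12 sinusoidal EC (median -0.82) and 15 of 15 hepatocyte markers (median -2.61) had an estimate below 0, and none was called. The summed pan-endothelial markers were at 2570 and 3010 CPM with the WT label and 3008 and 2994 CPM with the KO label, and the hepatocyte markers at 5061 and 11121 CPM against 873 and 2072 CPM. Their part in the members' values was not tested. Esm1 was at 0.24 (SE 0.89), and Apln and Aplnr rested on 1 library per label.

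In Kupffer cells 5 members passed the filter on low counts, the exceptions being Apln and Aplnr, and none was called, as was the case for all 13867 genes tested (0%, 706 with an unadjusted p under 0.05, and 72 called by DESeq2). Adm, Cd34, Emcn and Rgcc had both KO libraries above both WT libraries, as did 20.5% of all genes. Other gene lists also lay to one side between these libraries. Of 15 dissociation genes, 12 had an estimate below 0 (median -1.40, none called), with sums of 25202 and 36026 CPM with the WT label and 12740 and 8018 CPM with the KO label, and all 15 hepatocyte markers had an estimate above 0 (median 0.56, none called). Their part in the members' values was not tested. Rgcc, at 3.02 and 5.42 CPM with the WT label and 14.2 and 10.7 CPM with the KO label, had a log2 fold change of 1.52 (SE 0.52, adjusted p = 0.933, edgeR). Adm, at 27.4 and 28.9 CPM against 47.5 and 42.8 CPM, was at 0.63 (SE 0.30, adjusted p = 0.933). Cd34 was at 1.29 (SE 0.66, adjusted p = 0.933), Emcn at 0.82 (SE 0.46, adjusted p = 0.933) and Esm1 at 1.17 (SE 0.88, adjusted p = 0.933).

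The Kupffer cell values rested in part on KC KO 27, which stood apart in several members. This library held 20.0 CPM of Cd34, 14.4 CPM of Esm1 and 4.15 CPM of Apln, where the other 3 Kupffer cell libraries had 4.90 to 5.82, 2.50 to 4.57 and 0 to 0.201 CPM. Its pan-endothelial markers summed to 996 CPM against 508 to 715 CPM, which is 7.32% of the mean in ECs against 3.74% to 5.26%. Its mesothelial and portal fibroblast markers without Cd34 summed to 67.3 CPM against 19.0 to 29.6 CPM. Without KC KO 27 the log2 fold change was 0.20 for Cd34 and -0.51 for Esm1, while Rgcc remained at 1.35, Emcn at 0.74 and Adm at 0.58, none of them called. The part of other cells in these values was not tested.

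**Figure D5:**
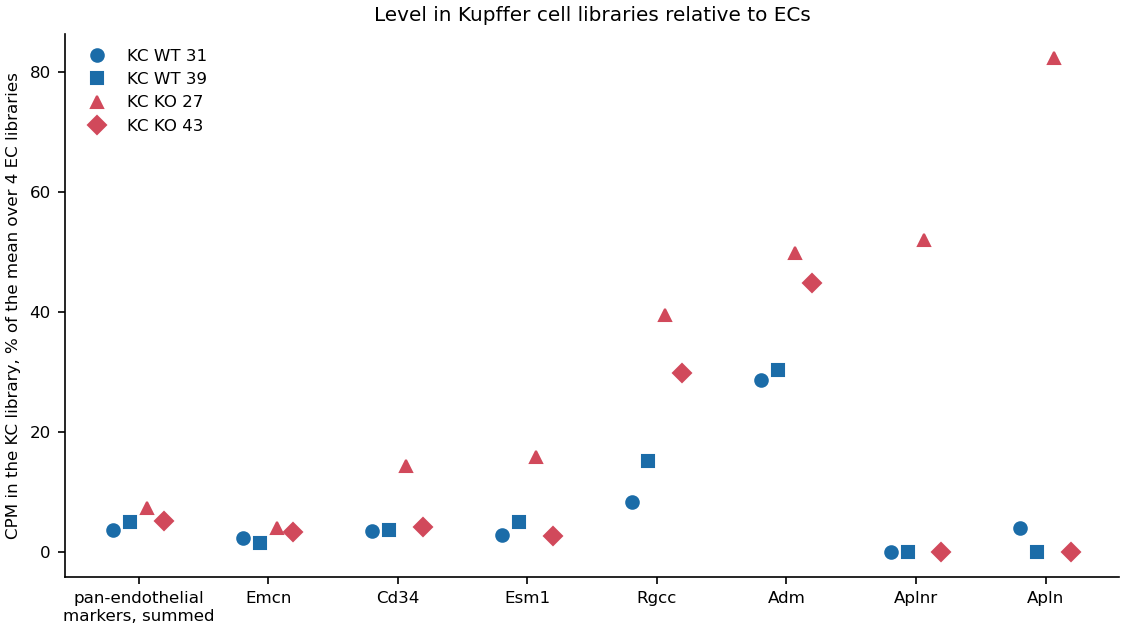
CPM of the members and of the summed pan-endothelial markers in the 4 Kupffer cell libraries, as a percentage of the mean over the 4 EC libraries. KC KO 27 (red triangle) is the highest library for all members and for the markers, and Rgcc, Adm, Aplnr and Apln reach 39.6% or more there beside 7.32% for the markers.

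Set against the mean of the 4 EC libraries, the Kupffer cell libraries held 1.56% to 3.96% of Emcn, 3.51% to 14.4% of Cd34, 2.76% to 15.8% of Esm1, 8.42% to 39.6% of Rgcc and 28.7% to 49.9% of Adm. The stellate cell libraries held 0.0450% to 2.66% of Emcn, 1.41% to 4.26% of Esm1, 7.90% to 23.7% of Cd34, 8.10% to 40.9% of Rgcc and 122% to 180% of Adm. Where the members stand beside the pan-endothelial markers depends on how these are summarised. Relative to the ECs labelled WT, the sum of the markers was at 4.17% to 8.17% in Kupffer cells and 21.1% to 24.7% in stellate cells, and the median marker was at 2.49% to 5.63% and 1.83% to 5.39%. On that scale Emcn, at 2.31% to 5.89% in Kupffer cells, was below the sum in each library and above the median in 3 of 4. Adm (48.2% to 83.8%), Rgcc (22.0% to 103%) and Cd34 (7.38% to 30.2%) were above both in every Kupffer cell library. Esm1 (4.16% to 23.9%) was above both in all but KC KO 43.

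In hepatocytes the members were scarce. Adm, Cd34, Emcn and Esm1 passed the filter, and Rgcc reached no more than 0.709 CPM. None was called among 11548 genes (0%, 821 with an unadjusted p under 0.05, and 32 by DESeq2), and none of the 4 had both KO libraries on one side, beside 16.4% of genes above and 23.2% below. The log2 fold changes were 0.28 (SE 0.67) for Adm, 0.41 (SE 0.68) for Cd34, -0.24 (SE 0.78) for Emcn and 1.18 (SE 1.49) for Esm1. Of the sinusoidal EC markers in hepatocytes, 11 of 12 had an estimate below 0 (median -0.84, none called). Rgcc, which was not tested there, had 0.191 and 0.136 CPM with the WT label and 0.709 and 0.404 CPM with the KO label. Whether the difference between labels itself differed between ECs and the other cell types was not tested.

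Over the 16 libraries, the genes most like each member were found by the Pearson correlation of log2 CPM, among 16357 genes whose mean reached 1 CPM in any group. The libraries share cell type, so that these values mostly order cell types. Closest to Emcn were Aqp1 (r = 0.986), Fam167b (r = 0.983) and Cldn5 (r = 0.978), to Esm1 Ackr1 (r = 0.962), Ccdc88c (r = 0.962) and Sdpr (r = 0.960), and to Cd34 Calm2 (r = 0.973), Gas6 (r = 0.971) and Tnfaip1 (r = 0.967). Adm was closest to Tmem50b (r = 0.988), Rsu1 (r = 0.988) and Laptm4a (r = 0.987), and Rgcc to Gtf2f1 (r = 0.967), Atf4 (r = 0.965) and Cenpt (r = 0.963). For Apln the 3 were RP24-343G19.2, Gm6368 and Acr (r = 0.859 to 0.869), and for Aplnr they were Aoc3, Mtcl1 and Atxn7l1os1 (r = 0.809 to 0.853). By rank correlation 5 of these 21 were again among the 3 closest, of which Aqp1 and Cldn5 belong to Emcn.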

How the data were processed

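The authors sequenced RNA of 4 sorted or centrifuged liver cell types and deposited raw counts, 1 table of reads per Ensembl gene for each library. The submitters' processing notes name Trimmomatic 0.32, HISAT2 2.1.0, HTSeq 0.9.1, edgeR and GRCm38. The strand setting is not given in the sources used here, and the labels name 2 library preparations, Smart-seq2 for the series and TruSeq stranded mRNA for the samples. The 5 summary lines of each table, of which reads on no gene came to 2.75% to 22.9%, were left out of totals.

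Groups followed the labels. Counts were fitted with edgeR 4.0.16 in R 4.3.3 (filterByExpr, TMM, quasi-likelihood test, Benjamini-Hochberg adjusted p under 0.05), within each cell type for KO against WT and over 16 libraries for ECs against other cell types. All p-values were adjusted over all genes tested. Standard errors were derived from the quasi-likelihood test, as the absolute log2 difference divided by the square root of its F statistic. The fits were tested on simulated data. Alternatives were DESeq2 1.42.0, RLE factors, library totals, no filter, one fit of 16 libraries, WT libraries alone, leaving out hepatocyte-enriched genes (at least 10 CPM in WT hepatocytes and 8 times the WT Kupffer cell mean) and each library in turn. Scaling to pan-endothelial markers, DESeq2 without hepatocyte-enriched genes, the shorter E-box word and the mesothelial sum without Cd34 were added after the values were seen. With 2 libraries against 2, an exact permutation test cannot go below p = 0.333 and was not run. Exon lengths are those of GENCODE M21 on GRCm38, which holds 98.9% of the identifiers. Correlations used a prior count of 2.

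The members, the 20 gene lists and the tests were chosen with earlier results of these data known. Named are the members, the genes called in a list or otherwise its most abundant ones in WT ECs, the receptors and ligands of the members, and the 3 genes most like each member. The 2 libraries of every group were further apart than counting error alone would put them (mean chi-square per gene 29.6 to 109).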

Additional observations from a re-analysis of the deposited data

How the results depend on the processing

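No paired analysis was run, because the labels do not state which libraries shared a liver. Each library has its own number, so that the numbers do not settle it. Some follow each other across cell types, as in EC WT 38, KC WT 39 and SC WT 40, and whether such libraries came from one liver was not tested. In ECs, 305 genes were called between the labels (17 higher and 288 lower). The count was 983 with DESeq2, 190 with library totals alone, 1259 with no filter on low counts, 0 without hepatocyte-enriched genes (372 with DESeq2 on the same genes), 539 when scaled to summed pan-endothelial markers, and 3 to 688 without 1 library, the lowest without EC KO 46 and the highest without EC WT 34, with 58 without EC KO 6. Of all listed genes 18 were called, against 39 with DESeq2, 0 without hepatocyte-enriched genes and 0 to 30 without 1 library. In stellate cells 0 genes were called with edgeR, against 408 with DESeq2, 663 with no filter and 178 with all 16 libraries in one fit. In Kupffer cells 0 became 72 with DESeq2, 159 with no filter and 0 to 12 without 1 library, and in hepatocytes 32, 227 and 0 to 55. With WT libraries alone, 1630 genes differed between ECs and stellate cells instead of 4481, and 2762 between ECs and Kupffer cells instead of 5513. The cause of these shifts was not tested, other than the smaller number of libraries or genes that a setting itself brings.

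Signs turned where members were scarce or differences small. Between labels in stellate cells, the log2 fold change without 1 library ranged from -6.04 (SC KO 8) to 0.27 (SC KO 20) for Apln, from -6.24 (SC KO 20) to 0.50 (SC KO 8) for Aplnr, from -0.65 (SC KO 8) to 0.98 (SC WT 32) for Esm1, from -1.21 (SC WT 40) to 0.41 (SC WT 32) for Cd34, from -0.075 (SC KO 20) to 0.54 (SC KO 8) for Adm and from -1.67 (SC KO 20) to 0.79 (SC KO 8) for Rgcc, which was at -0.0085 without hepatocyte-enriched genes. It ranged from -0.51 (KC KO 27) to 1.92 (KC KO 43) for Esm1 in Kupffer cells, and in hepatocytes from -1.61 (HC KO 25) to 3.78 (HC WT 29) for Esm1, from -0.90 to 0.97 (HC WT 33) for Emcn and from -1.91 (HC KO 25) to 0.34 (HC WT 29) for Zeb2. Against stellate cells, ECs were at -0.68 (EC WT 34) to 5.40 (SC WT 40) for Apln and at -2.39 (EC KO 6) to 4.11 (SC WT 40) for Aplnr, and against Kupffer cells at -0.90 (EC WT 34) to 6.15 (KC KO 27) for Apln. None of the values of turned sign passed the threshold. By rank correlation, 5 of the 21 closest genes were shared. Over all comparisons, 641 of 679 refitted log2 differences of the members kept their direction and their side of the threshold, or in the EC label comparison moved by less than the spread between replicates. The total includes refits that left out a library of a cell type outside the comparison. Outside the EC label comparison, an uncalled value of unchanged sign counts as kept at any size. The total therefore does not measure stability. Apln and Aplnr were at 0 in 8 and 11 of the 16 libraries. For Aplnr the exact Poisson interval was 1.96 to 3.87 CPM in EC WT 38, and the upper limit in EC WT 34 was 0.257 CPM. Those 2 libraries thus differed by more than counting error, and the cause was not tested.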
